A study of Arabidopsis thaliana with 6 samples.

Results

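Very short constitutive introns of Arabidopsis thaliana are described here, in wild type plants and in a mutant of PRMT5. They are the rows of the deposited intron table that are marked as introns, carry no alternative-splicing event, and are 60 to 80 bases long. Their loci also had to hold 2 to 19 such introns and a mean gene count of at least 20 reads over the libraries. The rule used position, length and gene counts, and none of the intron or junction reads analysed below. It found 11926 introns in 6898 loci, out of 128782 rows in the table, and they made up 13.4% of the 88756 constitutive introns that met the same locus rule.

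The 6 libraries came from whole plants of the Col-0 ecotype, 3 from wild type and 3 from a prmt5 mutant whose allele the labels do not give. Both genotypes were stratified in the dark for 4 days at 4 °C on Murashige and Skoog medium with agarose, then kept at 22 °C under constant white light until day 15, with no other treatment. The labels name the source as a pool of tissues and do not say that libraries of 1 genotype came from separate plants or cultures, so p-values measure only the spread between these libraries. The study asks how the transcriptional profile differs between the genotypes, and the design implies that single comparison.

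PRMT5 is a protein arginine methyltransferase that places symmetric dimethyl marks, among other targets on Sm and Sm-like proteins, which form the core of the small nuclear ribonucleoproteins of the spliceosome. U1 of these particles pairs first with the 5′ splice site, the bases around the exon-intron border, and U6 later replaces it there. The strongest contacts involve the last exonic base, usually G, and the intron bases that follow GT. Plant introns are mostly short and rich in U or A, and an intron below a minimum length leaves the spliceosome little room between the 5′ splice site, the branch point and the 3′ splice site. The introns of 60 to 80 bases lie near that lower edge in Arabidopsis.

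The sequences below are 12 introns that the results turn on, each from 3 exonic bases before the intron to its end. Capitals mark the 5′ splice site (the last 3 exonic and the first 6 intronic bases) and the AG at the 3′ end. SPPA, AT1G09440, AT3G05910, VPS25, RVE8 and CA1 had more intron reads in the mutant by both references. GLR3.4, FMN/FHY and SNRK2-8 had fewer relative to junction reads and to gene reads. PSAK and SHM1 are abundantly spliced introns that were not called, and DPE1 is an intron of 60 bases. Sequences are from the RefSeq TAIR10.1 assembly, read on the strand of the gene.
SPPA: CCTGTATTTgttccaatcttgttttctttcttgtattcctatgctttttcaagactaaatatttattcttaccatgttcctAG
AT1G09440: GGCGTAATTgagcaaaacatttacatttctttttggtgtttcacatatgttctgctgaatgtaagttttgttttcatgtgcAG
AT3G05910: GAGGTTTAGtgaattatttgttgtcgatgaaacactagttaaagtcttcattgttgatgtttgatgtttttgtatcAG
VPS25: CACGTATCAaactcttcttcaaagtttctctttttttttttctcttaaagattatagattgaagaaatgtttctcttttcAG
RVE8: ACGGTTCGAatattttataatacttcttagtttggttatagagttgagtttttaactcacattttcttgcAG
CA1: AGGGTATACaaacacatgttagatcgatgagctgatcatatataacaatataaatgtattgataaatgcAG
GLR3.4: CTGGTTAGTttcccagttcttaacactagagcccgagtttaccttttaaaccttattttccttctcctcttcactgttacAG
FMN/FHY: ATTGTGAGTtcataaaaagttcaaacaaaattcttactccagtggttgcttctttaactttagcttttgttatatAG
SNRK2-8: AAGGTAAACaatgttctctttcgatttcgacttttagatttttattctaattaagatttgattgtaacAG
PSAK: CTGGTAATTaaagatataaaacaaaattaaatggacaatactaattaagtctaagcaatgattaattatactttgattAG
SHM1: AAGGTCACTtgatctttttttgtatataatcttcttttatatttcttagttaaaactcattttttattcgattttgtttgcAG
DPE1: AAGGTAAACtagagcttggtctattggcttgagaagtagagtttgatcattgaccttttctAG

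Most of the short introns were whole annotated introns with ordinary ends. In the RefSeq annotation, 11775 of the 11926 matched a whole intron, 11826 (99.2%) had GT and AG ends on the strand of the gene, 77 had GC and AG ends and 1 had AT and AC ends. Their median length was 76 bases, with 23 introns at 60 bases and 1647 at 80 bases. In 2989 loci there was more than 1, and 1 locus held 10. They were first introns less often than constitutive introns of 81 bases or more, at 9.84% against 16.5%.

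A score was given to every 5′ splice site by adding, over its 9 bases, the log2 ratio of how often the base occurs there in 134156 annotated introns to an even frequency. A high score means common bases at each position. Short introns scored 7.11 ± 2.09 (SD over 11826 introns) and longer ones 6.97 ± 2.12 (SD over 75510 introns). The exon ended in G before 76.7% of short and 77.2% of longer introns, and intron base 5 was G in 51.0% and 49.99%. The letters CTNAC or CTNAT, which resemble a plant branch point, occurred on the transcribed strand between 50 and 6 bases before the intron end in 46.7% of short and 44.8% of longer introns. Median GC content was 32.9% in both classes. By sequence, then, the short introns stood close to the longer ones, apart from their length and place in the gene.

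Read-through of a short intron left fewer stop codons than that of a longer one. Of 11526 short introns with coding sequence on both sides, 9375 held an in-frame stop when read through. Among coding GT to AG introns, 81.4% of short and 90.98% of longer ones held such a stop. A shorter stretch holds fewer codons, so the length rule itself bears on this difference. Lengths that are a multiple of 3 made up 28.3% of the coding short introns and 33.8% of the coding longer introns. Of all 11926 short introns, 7049 were 76 to 80 bases long, a range that holds a single multiple of 3. The length rule itself thus bears on the lower share, and a depletion beyond it was not tested. Only 451 coding short introns kept the frame and held no stop.

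Junction reads, which cross an intron and so count spliced RNA, were listed over exactly the same intron for 11410 short introns and not for 516. The share with such a junction rose with length, from 34.1% of 85 introns of 60 to 62 bases and 73.2% of 209 introns of 63 to 65 bases to 97.7% of 7049 introns of 76 to 80 bases. Among rows that span a whole RefSeq intron the shares at the same lengths were 43.5%, 80.4% and 98.2%. The 516 introns without a junction held 7.59% of all short-intron reads, though they were 4.33% of the introns. Their 5′ splice sites scored 4.15 ± 4.88 (SD), against 7.12 ± 2.29 (SD) in introns with a junction. Of the 516, 95.2% had GT and AG ends, but only 385 (74.6%) matched a whole RefSeq intron. The scores cover all rows, so some may belong to borders that are not annotated 5′ splice sites. Such rows enter only the values relative to gene reads.

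**Figure D1:**
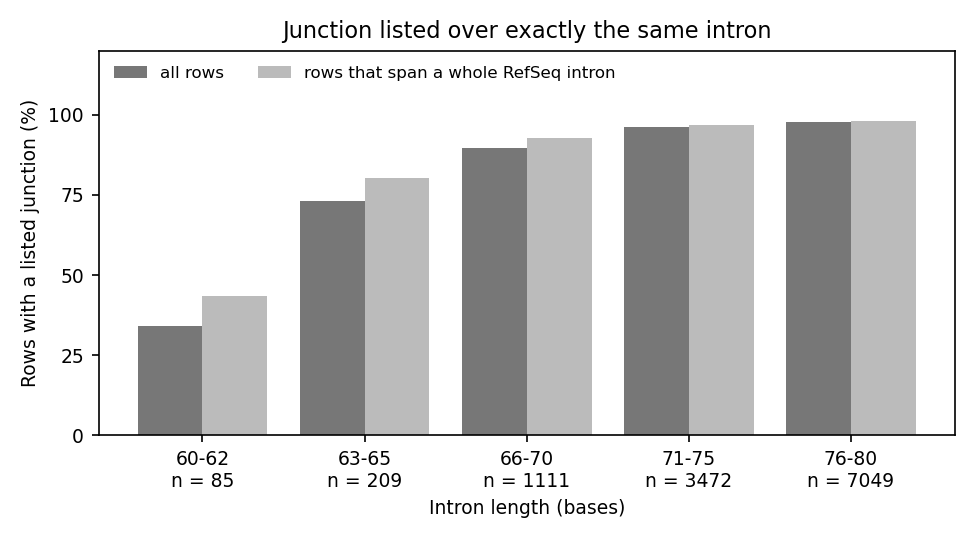
Share of short introns with a junction listed over exactly the same intron, in percent, by intron length in bases, for all rows of the rule and for rows that span a whole RefSeq intron (n is the number of all rows). The bars rise from 34.1% and 43.5% at 60 to 62 bases to 97.7% and 98.2% at 76 to 80 bases.

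Depth and composition of the libraries bear on what follows. Gene counts lay between 29145068 and 59480457 reads per library, and reads in short introns between 96689 and 192489. Exonic coverage leaned more to the 3′ end in wild type, where the median log2 ratio of the part nearest the 3′ end to that nearest the 5′ end was 1.68, 1.26 and 1.33 in replicates 1, 2 and 3, against 0.76, 0.84 and 1.32 in the mutant. A small-subunit Rubisco gene, RBCS1A, had 17676 to 18343 CPM in wild type and 13614 to 14515 in the mutant. PYK10, a root β-glucosidase gene, had 866 to 1343 over the 6 libraries, so green and root tissue were both represented. PRMT5 itself holds no short intron under the rule. It had 1385, 1670 and 865 gene reads in wild type against 1915, 2438 and 1840 in the mutant. These raw counts, not scaled for depth, were higher in every mutant library than in any wild type library. A loss of PRMT5 reads thus does not mark the mutant. In bulk RNA of whole plants, fewer cells of a type and less RNA per cell cannot be told apart.

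Reads in short introns were more frequent in the mutant. Summed over the 11410 introns with a junction, there were 6.74, 6.43 and 6.57 intron reads per 100 junction reads in wild type replicates 1, 2 and 3, against 8.64, 9.20 and 9.84 in those of the mutant. All 3 mutant libraries lay above all 3 wild type libraries. The means were 6.58 ± 0.155 and 9.22 ± 0.602 (SD, n = 3 each), a ratio of 1.40 (two-sided exact permutation p = 0.1, the smallest that 3 against 3 libraries can give). Relative to the gene, the summed reads of all 11926 introns went from 9.55 ± 0.385 to 13.2 ± 0.882 per 1000 gene reads (SD, n = 3 each), a ratio of 1.38 (exact p = 0.1), again without overlap.

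The typical short intron changed less than the sum. Among the 8588 introns with a mean of at least 20 junction reads, the median number of intron reads per 100 junction reads was 4.26, 4.58 and 4.55 in wild type against 5.26, 5.68 and 5.83 in the mutant, a ratio of 1.25 between group means. With the replicates of each genotype pooled, the middle 80% of these introns spanned 1.09 to 18.0 reads per 100 junction reads in wild type and 1.47 to 26.0 in the mutant. More than 50 reads per 100 junction reads were reached by 176 introns in wild type and by 357 in the mutant. At the other end, 366 introns had no intron read in the pooled wild type libraries and 221 had none in the mutant libraries. Intron reads per junction read had all mutant libraries above all wild type libraries in 1404 of the 8588 (16.3%, against 20.3% of the 78048 introns of the table examined in the same way), and below them in 360 (4.19%, against 3.18%).

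Single introns were tested with edgeR's quasi-likelihood test, fitted over all introns of the table that reached 10 reads in 3 or more libraries. A call is a Benjamini-Hochberg adjusted p under 0.05, adjusted over the whole table. Only 3410 short introns reached 10 reads in 3 libraries, and 268 of them did so with no wild type library at 10 reads, against 30 with no mutant library at 10. Relative to gene reads, 689 of the 3410 were called higher in the mutant and 51 lower, or 20.2% and 1.496%, where 26.7% and 1.21% of all 34408 tested introns were called higher and lower. Relative to junction reads, 597 of 3011 were called higher and 51 lower, or 19.8% and 1.69%, against 26.8% and 1.1% of all 28973. The share of short introns called higher was thus below that of the table in both fits. Both references called the same 526 introns higher and 29 lower, and 0 had calls in opposite directions. The median log2 change relative to junction reads was 0.32 in the tested short introns and 0.48 in all tested introns. With coverage along genes as a covariate the calls fell from 740 to 406 relative to gene reads and from 648 to 425 relative to junction reads, mostly higher in both cases (388 and 407).

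Short introns were set against longer constitutive introns by the log2 ratio of their summed intron reads per junction read in each library. Against introns of 81 bases or more, this difference was -0.24, -0.24 and -0.23 in wild type against -0.37, -0.35 and -0.36 in the mutant, so the short introns rose by less, by 0.13 on the log2 scale, with no overlap (exact p = 0.1). Longer introns had gone from 7.75 ± 0.206 to 11.9 ± 0.749 reads per 100 junction reads (SD, n = 3 each), a ratio of 1.53. Within the 6562 loci that hold both kinds, the shift was -0.14 (exact p = 0.1), and against introns of 81 to 120 bases it was -0.18 (exact p = 0.1). With gene reads as the reference the shift against all longer introns was -0.05 (exact p = 0.3) and the genotypes overlapped, while against introns of 81 to 120 bases it was -0.17 (exact p = 0.1). The smaller rise of short introns was therefore free of overlap against introns of 81 to 120 bases under both references, and against all longer ones only with junction reads.

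By length, the change did not drop at a single border. The ratio of mutant to wild type was 1.41 at 60 to 65 bases, 1.59 at 66 to 70, 1.35 at 71 to 75, 1.40 at 76 to 80, 1.49 at 81 to 90 and 1.63 at 91 to 100 bases. It was highest, 1.75, above 120 and up to 150 bases and came down to 1.29 above 500 bases. These are ratios of sums, and single tested introns did not peak at 66 to 70 bases. Relative to junction reads, their median log2 change was 0.24, 0.29, 0.32 and 0.32 in the short classes, from the shortest to the longest. The shares called higher were 13.4%, 18.0%, 19.5% and 20.6% in the same order. The level itself fell with length within the short introns. In wild type it was 12.6 ± 0.701 reads per 100 junction reads at 60 to 65 bases, 10.2 ± 0.405 at 66 to 70, 7.24 ± 0.142 at 71 to 75 and 5.66 ± 0.132 at 76 to 80 (SD, n = 3 each), with no overlap between neighbouring lengths. On the log2 scale the shortest class stood 1.15 above the longest in wild type and 1.16 in the mutant, and this gap overlapped between the genotypes (exact p = 0.9). At the upper border of the rule the 1647 introns of 80 bases went from 5.20 to 8.09 reads per 100 junction reads, and the 1754 introns of 81 bases, just outside, from 5.08 to 8.16. The 1577 introns of 79 bases went from 5.89 to 7.75. The ratio was thus 1.31 at 79 bases, 1.55 at 80 and 1.61 at 81, and varied between neighbouring lengths. At the lower border, 5 of 23 introns of 60 bases and 4 of 18 introns of 59 bases had a junction, too few for a level.

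**Figure D2:**
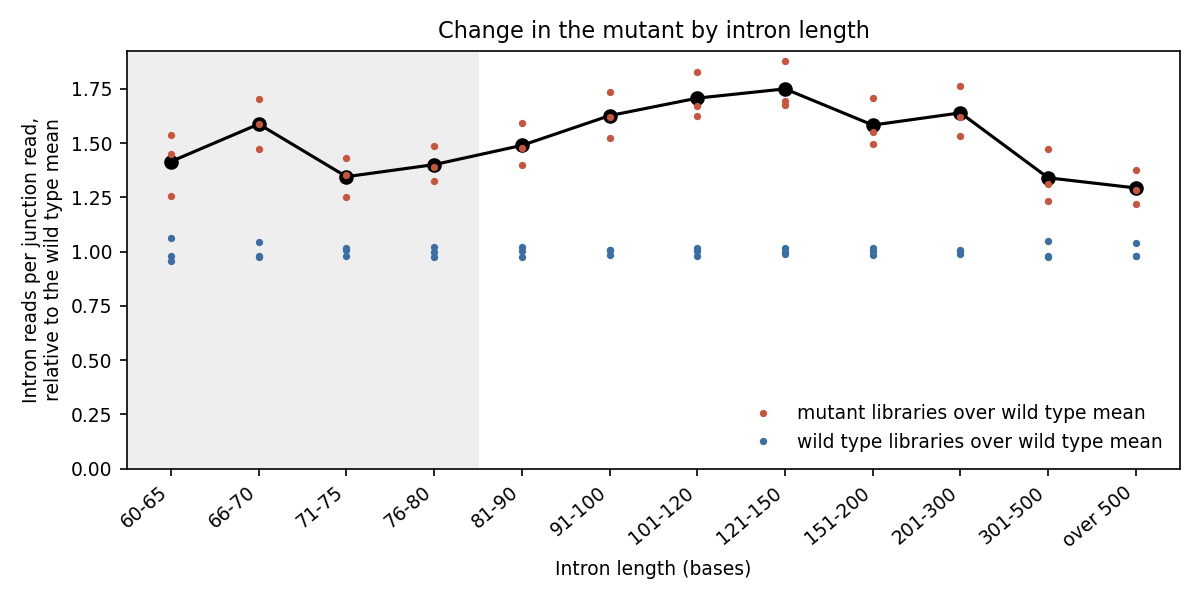
Summed intron reads per junction read in each library divided by the wild type mean, by intron length in bases, with wild type libraries in blue, mutant libraries in red and the ratio of group means as black points and line. The grey band marks the introns of 60 to 80 bases, whose ratios lie between 1.35 and 1.59, while the highest ratio, 1.75, lies above 120 and up to 150 bases.

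The rise of short introns went with their 5′ splice site. Those called higher scored 5.76 ± 2.01 and those tested and not called 7.31 ± 1.90 (SD over 593 and 2337 introns), ranges that overlap widely. At scores under 2, short introns had 14.5, 13.3 and 13.8 reads per 100 junction reads in wild type against 42.1, 38.5 and 41.2 in the mutant, a ratio of 2.93, and 21 of 36 tested were called higher. The ratio was 2.11 at scores of 2 to 4, 1.71 at 4 to 6, 1.35 at 6 to 8 and 1.09 at 8 to 10. Above 10, the wild type libraries had 5.43, 5.48 and 5.59 and the mutant libraries 5.49, 5.74 and 5.65, which overlap, and 4 of 137 tested were called higher and 4 lower. The share called higher fell along the same steps from 58.3% through 44.9%, 32.0%, 18.4% and 7.84% to 2.92%. Divided at the median score of annotated introns, the weaker class exceeded the stronger by 0.21 (log2) in wild type and 0.76 in the mutant, a shift of 0.55 with no overlap (exact p = 0.1).

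Introns of 81 to 120 bases followed the same order of scores, and in most score classes they rose by more than the short ones. Their ratios were 3.18, 2.73, 1.88, 1.42, 1.15 and 1.09 from the weakest to the strongest class. The log2 rise of the short introns was smaller by 0.37 at scores of 2 to 4, by 0.14 at 4 to 6, by 0.07 at 6 to 8, by 0.08 at 8 to 10 and by 0.09 above 10, each with no overlap between genotypes (exact p = 0.1). Under a score of 2 the shift was -0.12 and the genotypes overlapped (exact p = 0.3). Against all introns of 81 bases or more with scores of 6 to 8, the shift was -0.01 and the genotypes overlapped (exact p = 0.4), and under a score of 2 it was 0.22, with the short introns rising by more (exact p = 0.1).

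**Figure D3:**
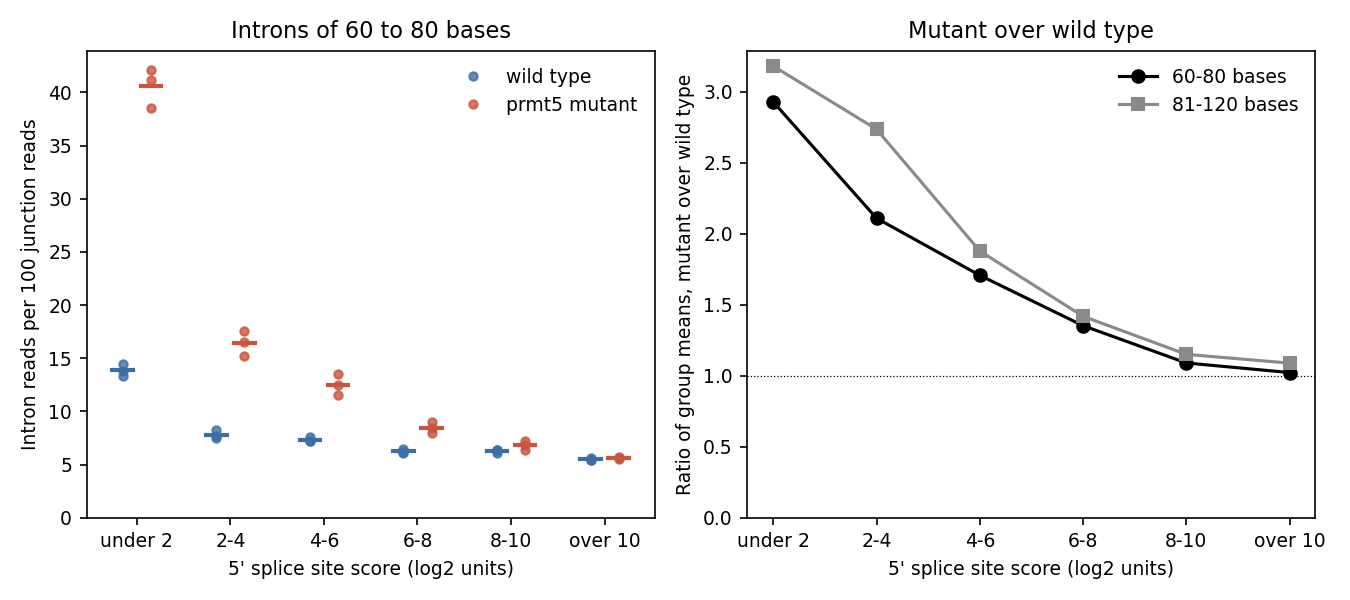
Left, intron reads per 100 junction reads of the short introns in each library (points) and group means (lines) by 5′ splice site score. Right, the ratio of mutant to wild type means by score for introns of 60 to 80 and 81 to 120 bases, with 1 as the dotted line. The ratio falls from 2.93 to 1.02 in the short introns and from 3.18 to 1.09 in the others.

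Single bases of the 5′ splice site went with different changes. With G as the last exonic base the short introns went from 6.80 to 9.02 reads per 100 junction reads, a ratio of 1.33. The ratio was 1.57 with A, 1.82 with T and 2.23 with C at that position. At intron base 3 the ratio was 1.34 with A, 1.23 with G, 1.55 with C and 1.79 with T, and at intron base 4 it was 1.30 with A and 1.61 with T. At intron base 5 it was 1.32 with G and between 1.44 and 1.52 with the other bases. In wild type, summed reads per junction read were lower without G at the last exonic position than with it, by a log2 difference of -0.25, -0.28 and -0.30 in replicates 1, 2 and 3. In the mutant the difference was 0.15, 0.13 and 0.14, a shift of 0.42 with no overlap (exact p = 0.1). The median over introns gave -0.77 and -0.33, so the shift was alike at 0.44 but the sign in the mutant was not.

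The last exonic base and intron base 5 are shown together, since both lie in the stretch that pairs with U1. Where both were G, 3700 introns went from 6.68 ± 0.110 to 8.06 ± 0.447 reads per 100 junction reads (SD, n = 3 each), a ratio of 1.21, and 109 of 953 tested (11.4%) were called higher. Where neither was G, 340 introns had 9.05, 8.70 and 8.80 reads per 100 junction reads in wild type against 23.5, 24.4 and 28.0 in the mutant, a ratio of 2.86. In that class 65 of 106 tested introns (61.3%) were called higher and 1 lower. The 2 classes with a single G had ratios of 1.40 (last exonic base) and 1.55 (base 5). The log2 gap between the class with neither and the class with both G was 0.41 in wild type and 1.65 in the mutant, without overlap (exact p = 0.1). SPPA, AT1G09440 and VPS25, printed above, have neither G.

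**Figure D4:**
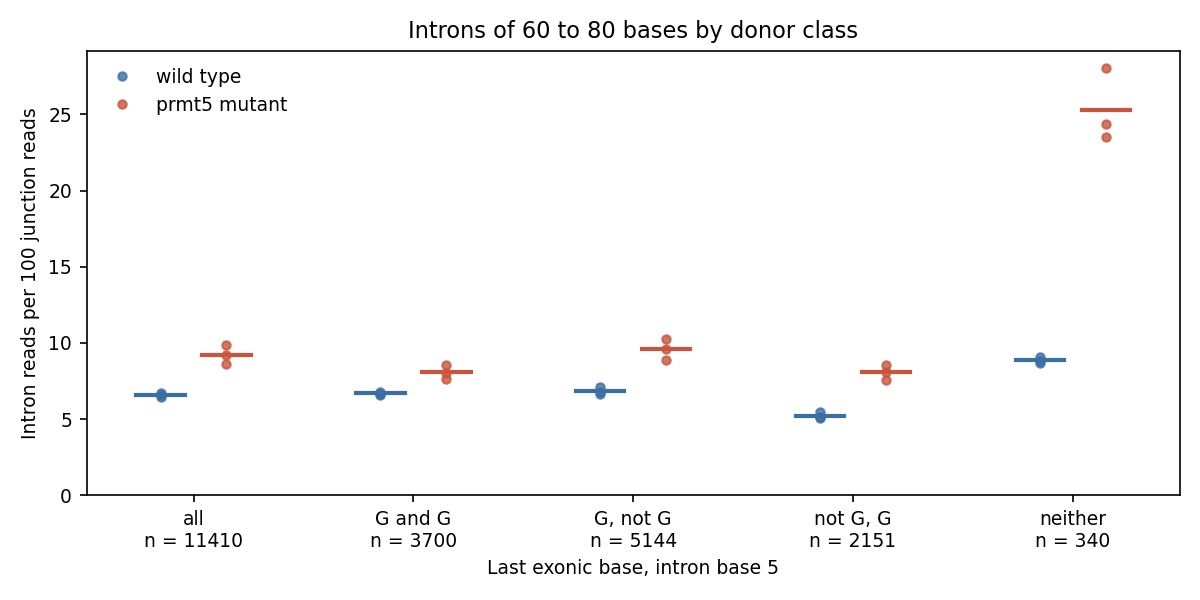
Intron reads per 100 junction reads of short introns in each library (points) with group means (lines), for all introns with a junction and by whether the last exonic base and intron base 5 are G (n is the number of introns). The class with neither G goes from 8.85 to 25.3 between the group means, and the class with both from 6.68 to 8.06.

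Whole 5′ splice sites gave a mixed picture at the level of actual sequences. The 11335 GT to AG introns with a junction used 1980 different 9-base sites, and the 12 most frequent covered 7.70% of them. Lower case marks the 3 exonic bases here. The 100 introns with aagGTAAAA went from 4.90 ± 0.229 to 5.50 ± 0.334 reads per 100 junction reads (SD, n = 3 each), and the 61 with aagGTATGT from 4.86 ± 0.388 to 4.51 ± 0.318, which overlap. The 79 with aagGTTTGT rose from 5.26 ± 0.392 to 8.44 ± 0.862 and the 88 with cagGTTTGT from 5.57 ± 0.109 to 7.67 ± 0.576, both without overlap (exact p = 0.1). They are the only pair of the 12 with T at intron base 3. The 12 sites all scored between 8.53 and 10.9. This pair scored 9.0 and 8.9, with ratios of 1.61 and 1.38, against 1.09 for all short introns with scores of 8 to 10. The 68 introns with caaGTAAGT, the only one of the 12 without G before the GT, had 8.07, 8.81 and 8.34 in wild type against 7.01, 6.40 and 7.57 in the mutant, lower without overlap (exact p = 0.1). At this site, where intron bases 3 to 6 all have the most frequent base, a missing G at the exon end did not go with a rise.

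Other features went with smaller differences in the ratio to junction reads. Introns below and above the median 3′ splice site score had ratios of 1.40 and 1.40, and their log2 gap overlapped between genotypes (exact p = 0.9). Lengths that are or are not a multiple of 3 gave 1.41 and 1.40 (exact p = 0.9), and coding introns with or without a stop on read-through gave 1.40 and 1.42 (exact p = 0.6). Introns with GC content below the median rose by 1.47 and those above it by 1.33, a log2 shift of 0.15 with no overlap (exact p = 0.1). First introns had a ratio of 1.45 and last introns 1.36, and their gap overlapped between genotypes (exact p = 0.4). Relative to gene reads, 83 of 305 tested first introns (27.2%) and 74 of 797 last introns (9.28%) were called higher, with median log2 changes of 0.52 and 0.11, and relative to junction reads 22.3% and 13.4% were. A gene-based value depends on where along the gene the intron lies, and exonic coverage leaned more to the 3′ end in wild type. A part of coverage in this contrast was not tested. The 73 introns with GC and AG ends and a junction went from 9.14 ± 0.167 to 11.5 ± 1.17 reads per 100 junction reads (SD, n = 3 each), and 4 of 31 tested were called higher and 1 lower.

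Within 1 gene, short introns did not act as a block. Of 536 loci with at least 2 tested short introns, 26 had all of them called higher, 179 had some called higher, 331 had none called higher, and 7 held calls in both directions. In the 2024 loci with a tested short and a tested longer intron, the short one changed by less in 1165 and by more in 859, with a median log2 difference of -0.19. AT1G09440 and GS2, described below, each hold a short intron that was called higher and one that was not called.

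The largest rises by the naming rule began with the intron of SPPA (signal peptide peptidase, a thylakoid-associated protease of chloroplasts; chr1:27828231-27828310, plus strand, 80 bases, between coding exons). It had 40, 99 and 56 intron reads in wild type against 382, 389 and 396 in the mutant, while reads spliced over it numbered 250, 385 and 193 in wild type against 32, 12 and 31 in the mutant. Intron reads outnumbered spliced reads in the mutant libraries and were the minority in wild type. The log2 change relative to junction reads was 6.24 ± 0.39 (SE; edgeR adjusted p = 1.37e-08) and relative to the gene 2.10 ± 0.19 (adjusted p = 8.66e-10). The other short intron of SPPA, of 78 bases, rose by 1.44 on the log2 scale relative to junction reads (edgeR adjusted p = 0.000354).

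A similar reversal occurred in AT1G09440, which encodes a member of the protein kinase superfamily (chr1:3046356-3046435, minus strand, 80 bases). Its intron reads went from 6, 13 and 5 to 190, 279 and 245, and its junction reads from 24, 53 and 26 to 12, 23 and 12. The log2 change relative to junction reads was 6.02 ± 0.30 (SE; edgeR adjusted p = 4.81e-12). The gene itself was higher in the mutant, at 56.7 ± 4.44 against 11.1 ± 2.06 CPM (SD, n = 3 each). Its short intron of 75 bases with a 5′ splice site score of 8.41, against 2.31 for the intron that rose, was not called (log2 change -0.67, adjusted p = 0.603).

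ARP9, for actin-related protein 9, rose in reads of its intron at chr5:17472110-17472184 (plus strand, 75 bases) from 48, 24 and 7 to 132, 190 and 206, with junction reads falling from 30, 54 and 31 to 8, 11 and 13. Wild type replicate 1 stood far above the other wild type libraries. The log2 change relative to junction reads was 4.41 ± 0.45 (SE; edgeR adjusted p = 2.84e-06). Relative to the gene, which was itself higher by 1.44 on the log2 scale, it was 1.48 ± 0.29 (adjusted p = 0.000181). The change relative to junction reads was 5.42 when wild type replicate 1 was left out. Of the 4 other short introns of ARP9, 3 were not tested and 1 was not called.

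AT3G53100 (a GDSL-like lipase gene; chr3:19685976-19686055, minus strand, 80 bases) already had more intron than junction reads in wild type, 50, 107 and 44 against 20, 60 and 31. In the mutant it had 162, 151 and 124 intron reads and 3, 4 and 4 junction reads, which gave 4.13 ± 0.27 on the log2 scale relative to junction reads (SE; edgeR adjusted p = 2.00e-10) and 1.21 ± 0.21 relative to the gene (adjusted p = 5.25e-05). Its locus overlaps AT3G53090, and since use of the strand in counting is not given, its reads are uncertain. AT4G38260, whose locus overlaps both neighbours, is uncertain in the same way, at 4.50 ± 0.28 on the log2 scale (edgeR adjusted p = 1.28e-10) in its 80-base intron. A short intron of 69 bases in AT4G38260 was called lower relative to junction reads (log2 change -1.34, edgeR adjusted p = 0.0486). Relative to gene reads that 69-base intron was not called.

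In AT3G05910 and VPS25 the intron rose while splicing over it went on. AT3G05910, a pectin acetylesterase family gene (chr3:1766462-1766536, minus strand, 75 bases), had 0, 10 and 1 intron reads in wild type against 70, 92 and 83 in the mutant, with 112, 251 and 111 junction reads in wild type against 152, 198 and 130 in the mutant. Its log2 change was 4.52 ± 0.49 (SE; edgeR adjusted p = 3.27e-07). It was 6.60 on leaving out wild type replicate 2, which held nearly all the wild type intron reads. VPS25, a subunit of the ESCRT-II complex that sorts ubiquitinated membrane proteins (chr4:10408445-10408523, minus strand, 79 bases), had 2, 4 and 4 intron reads in wild type against 75, 39 and 66 in the mutant, and its log2 change was 4.04 ± 0.45 (edgeR adjusted p = 5.96e-07). A further short intron of VPS25, of 71 bases and with a score of 3.48, rose by 3.07 (adjusted p = 1.87e-05). TRFL8, a TRF-like gene of the MYB family, rose by 4.77 ± 0.47 in its 80-base intron (edgeR adjusted p = 9.52e-08). It had 7, 2 and 4 intron reads in wild type against 95, 47 and 60 in the mutant. The introns of VPS25 and TRFL8 reached 10 reads in no wild type library. They passed the read filter through the mutant libraries alone, which limits what their adjusted p-values show. All 8 introns with the largest rises had 5′ splice site scores between 2.31 and 4.61, below the mean of 7.11.

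Falls were fewer: of 838 introns with enough reads for the naming rule, 13 met it as falls and 232 as rises. The read minimum is a mean over all 6 libraries, so introns with many reads in the mutant only can pass it. All mutant libraries lay above all wild type libraries in 42.5% of the 838, against 16.3% of the 8588 introns with enough junction reads. The full naming rule was not counted over the whole table. By the junction call alone rises also prevailed there, with 26.8% of tested introns called higher and 1.1% lower. GLR3.4, a glutamate receptor-like channel gene (chr1:1507807-1507885, plus strand, 79 bases), had 49, 145 and 69 junction reads in wild type against 216, 299 and 249 in the mutant, while its intron reads numbered 47, 96 and 48 and then 45, 37 and 38. The log2 change relative to junction reads was -2.23 ± 0.29 (SE; edgeR adjusted p = 4.80e-06). In FMN/FHY, the riboflavin kinase and FMN hydrolase gene (chr4:11432826-11432899, plus strand, 74 bases), intron reads were 36, 43 and 30 in wild type against 21, 34 and 18 in the mutant, and junction reads rose from 141, 225 and 108 to 434, 473 and 428. Its log2 change was -2.12 ± 0.35 (edgeR adjusted p = 6.47e-05). In both, intron reads were similar or fewer in the mutant libraries while junction reads were more numerous.

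SNRK2-8, a kinase gene of the SnRK2 family that acts in responses to abscisic acid and osmotic stress, showed the same in its 67-base intron (chr1:29457748-29457814, minus strand), where the log2 change was -1.47 ± 0.37 (SE; edgeR adjusted p = 0.00406). AT2G21385, whose product is uncharacterized in the annotation, fell by 1.22 ± 0.27 (edgeR adjusted p = 0.00121). Under the coverage covariate neither was called (log2 -0.80, adjusted p = 0.322, and log2 -0.87, adjusted p = 0.112). The loci of GLR3.4, FMN/FHY and SNRK2-8 overlap another locus, and their genes were higher in the mutant, with log2 changes of 1.22, 1.53 and 1.07.

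**Figure D5:**
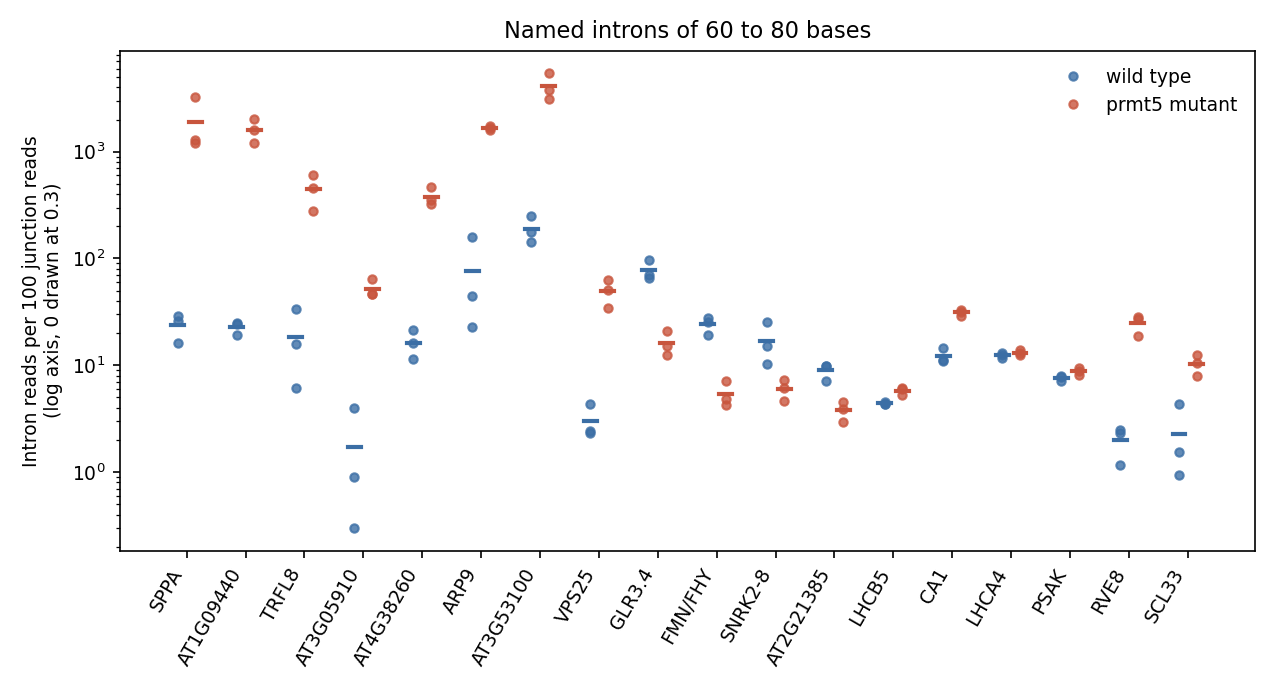
Intron reads per 100 junction reads (log axis) in each wild type and mutant library for named short introns, with group means as lines and 0 drawn at 0.3. The first 8 introns rise in the mutant, the next 4 fall, and LHCB5, LHCA4 and PSAK, among the most abundantly spliced, differ little beside CA1, RVE8 and SCL33.

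The most abundantly spliced short introns lie in photosynthesis genes. CA1, a chloroplast carbonic anhydrase gene (chr3:195338-195405, minus strand, 68 bases), had 3313, 4997 and 2451 intron reads in wild type against 5466, 6553 and 6657 in the mutant, or 14.5, 11.3 and 11.04 per 100 junction reads against 29.2, 31.6 and 33.0. The groups did not overlap, and the log2 change relative to junction reads was 1.35 ± 0.13 (SE; edgeR adjusted p = 5.09e-08), while the gene's level differed by a log2 change of -0.05 (adjusted p = 0.817). Its 5′ splice site has G at the exon end and scored 5.05.

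In the other 3 of the 4 introns with the most junction reads the change was smaller. LHCB5, a minor antenna protein of photosystem II, had 4.32, 4.36 and 4.55 intron reads per 100 junction reads in wild type against 5.23, 6.10 and 5.98 in the mutant. Its log2 change of 0.39 ± 0.13 passed the test relative to junction reads (edgeR adjusted p = 0.0322) and did not relative to the gene (adjusted p = 0.0704). It was no longer called when any of wild type replicates 1, 2 and 3 or mutant replicates 2 and 3 was left out (adjusted p = 0.0597 to 0.1245). LHCA4, an antenna protein of photosystem I, had 13.02, 12.5 and 11.7 in wild type against 12.9, 12.4 and 13.7 in the mutant, and the groups overlapped (log2 change 0.07, adjusted p = 0.757). PSAK, a photosystem I subunit, had a log2 change of 0.20 ± 0.14 (adjusted p = 0.344). In all 3 the gene was lower in the mutant, by 0.87, 0.87 and 0.89 on the log2 scale.

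At the 2 ends of the length range, the best-covered introns changed little or could not be tested. DPE1, the plastid disproportionating enzyme of starch breakdown, holds an intron of 60 bases (chr5:25927933-25927992, minus strand) with 84, 125 and 47 junction reads in wild type against 214, 264 and 181 in the mutant. Its intron reads numbered 0, 2 and 0 and then 5, 18 and 17, too few to be tested. An intron of exactly 60 bases was thus spliced in all 6 libraries. PEL1, a Pelota-type gene of the release factor 1 family, had 9, 24 and 21 intron reads in its 60-base intron in wild type against 16, 20 and 21 in the mutant (log2 change relative to junction reads 0.65, edgeR adjusted p = 0.347). At 80 bases, GS2, the chloroplast glutamine synthetase, and SHM1, a mitochondrial enzyme of photorespiration, had log2 changes of 0.32 and 0.30 (adjusted p = 0.186 and 0.194). A different short intron of GS2, of 76 bases, was called higher by 1.17 (adjusted p = 0.000285).

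Gene lists were read against the table's 26.8% called higher relative to junction reads. Of 20 clock loci, 8 held 13 short introns, 6 were tested and 2 were called higher. RVE8, an activator of evening-phased clock genes, had 4, 14 and 3 reads in a 69-base intron (chr3:2947188-2947256, plus strand) in wild type against 39, 22 and 38 in the mutant, with 161, 598 and 259 and then 139, 118 and 139 junction reads. That is 2.48, 2.34 and 1.16 per 100 junction reads against 28.1, 18.6 and 27.3, or 3.58 ± 0.46 on the log2 scale (SE; edgeR adjusted p = 3.18e-06) in a gene that was lower in the mutant, by 0.87 on the log2 scale. Of the splicing-factor list, 16 of 32 loci held 25 short introns, 16 were tested and 1 was called higher. It lies in SCL33, which encodes a serine/arginine-rich splicing factor, with 3, 14 and 3 intron reads in wild type against 20, 46 and 30 in the mutant (log2 change 2.13 ± 0.50, edgeR adjusted p = 0.00255). Leaving out wild type replicate 2 gave 3.10, and the intron was not called with the coverage covariate (log2 1.82, adjusted p = 0.0616).

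The other lists ranged from few calls to shares near the background. Ribosomal protein genes held 63 short introns, of which 39 were tested and 1 was called higher. Of 10 tested in proteasome genes 1 was called higher, and of 27 in photosystem or chlorophyll genes 6 (22.2%). Kinase genes held 1075, of which 240 were tested, 47 (19.6%) called higher and 8 lower. In transcription factor genes 6 of 19 tested were called higher. Flowering time genes held 12 short introns, of which 2 were tested and 0 were called by edgeR.

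Host genes of short introns called higher were themselves often higher in the mutant. Of 541 loci with such an intron (relative to junction reads), the gene was called higher in 217 (40.1%) and lower in 41 (7.58%). Loci with tested short introns and no call had 436 of 1714 higher (25.4%) and 236 lower (13.8%). Of the 50 loci with a short intron called lower, the gene was higher in 25 and lower in 4. Among all 6898 loci with a short intron, 26.3% were called higher and 12.5% lower, and among all 21949 genes tested 18.6% and 15.9%.

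Spliced reads that used 1 end of a short intron and another partner showed whether sites shifted. There were 5308 such junctions at 3944 short introns, and 4808 of them matched no annotated intron. Summed per 1000 reads of the short introns' own junctions, they numbered 33.9, 31.9 and 32.0 in wild type against 30.6, 31.4 and 33.3 in the mutant, which overlap (exact p = 0.4). Unannotated ones alone numbered 3.21, 3.25 and 3.26 in wild type against 3.40, 3.78 and 4.04 in the mutant, a ratio of 1.15 with no overlap (exact p = 0.1). Use of other sites was thus a small part of the reads in both genotypes.

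Other 5′ splice sites (donors) within 30 bases, annotated or not, had 12.2 ± 0.204 reads per 1000 in wild type and 11.6 ± 0.978 in the mutant (SD, n = 3 each). The genotypes overlapped (exact p = 0.4). Unannotated donors alone had 0.507 ± 0.0702 and 0.463 ± 0.0346, which also overlap (exact p = 0.5). Divided by side, these less used unannotated donors had opposite directions. Unannotated donors upstream of the annotated one had 0.308, 0.323 and 0.417 reads per 1000 in wild type against 0.234, 0.292 and 0.269 in the mutant (ratio 0.76), and those downstream, inside the intron, 0.149, 0.154 and 0.171 against 0.190, 0.196 and 0.208 (ratio 1.25), neither with overlap (exact p = 0.1 each). Donors exactly 5 bases downstream, chosen after the values were seen, rose from 0.0269 ± 0.00100 to 0.0554 ± 0.00330 per 1000 (SD, n = 3 each) over 33 junctions. Those 4 bases downstream, over 126 junctions, had 0.0729 ± 0.0128 and 0.0857 ± 0.00280, which overlap (exact p = 0.3). Donors 4 bases upstream, annotated or not, had 6.07 ± 0.248 and 5.96 ± 0.505 (exact p = 0.8). Those 5 bases upstream went from 0.586 ± 0.0124 to 0.483 ± 0.0454 without overlap (exact p = 0.1). Unannotated acceptors within 30 bases downstream rose from 1.66 ± 0.0801 to 1.99 ± 0.201 per 1000 (exact p = 0.1, no overlap). Acceptors 3 bases downstream, annotated or not, had 3.24, 2.99 and 3.02 in wild type against 2.67, 2.71 and 2.83 in the mutant.

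Single junctions of short introns were tested against the other junctions of their cluster, those that share a start or an end, with diffSpliceDGE of edgeR. Of 227 tested, 10 (4.41%) passed, 3 with a larger share in the mutant (1.32%) and 7 with a smaller one (3.08%), against 2.73%, 2.35% and, in either direction, 5.08% of all 5020 junctions tested. In AT2G04845 the junction of a 66-base intron made up 12.1%, 16.9% and 5.63% of its cluster in wild type against 78.2%, 70% and 72.3% in the mutant (adjusted p = 1.54e-05), and the other junction used a donor 29 bases upstream. FAC1, which encodes an AMP deaminase, went from 37.6% ± 0.707 to 72.5% ± 3.88 (SD, n = 3 each; adjusted p = 0.00707), with a donor 15 bases upstream as the alternative. In both the shorter intron gained share. AT5G40500 was the other one that rose, from 42.6% ± 11.9 to 87.3% ± 3.46 (adjusted p = 0.0123). Its alternative used a donor 27 bases upstream, so the shorter intron gained share there too. The 5′ splice site of that short intron scored -7.92. Its intron reads were called higher relative to the junction (log2 change 0.69, edgeR adjusted p = 0.0256).

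Among called junctions that lost share and had a mean of at least 30 reads, PIN7 had the largest log2 loss. It encodes an auxin efflux carrier. Its junction over 77 bases (chr1:8182129-8182205, minus strand) had 51, 103 and 49 reads in wild type against 19, 35 and 28 in the mutant, and a junction with a donor 12 bases upstream had 146, 256 and 113 and then 240, 412 and 304. The share of the short form fell from 28.3% ± 2.21 to 7.87% ± 0.550 (SD, n = 3 each; edgeR adjusted p = 4.40e-05). Reads in the intron rose relative to that junction, by 2.96 ± 0.45 on the log2 scale (adjusted p = 3.02e-05), and relative to the gene by 1.24 ± 0.46 (adjusted p = 0.0426). AT3G56210 fell from 18.1% ± 3.53 to 6.65% ± 1.22 (adjusted p = 0.000285), and AT1G67700 from 44.2% ± 1.44 to 28.3% ± 0.721 (adjusted p = 0.0471). Calls among short-intron junctions were few and numbered 6, 6, 5 and 6 without wild type replicates 2 and 3 and mutant replicates 2 and 3 in turn.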

How the data were processed

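Polyadenylated RNA of whole plants was sequenced in 6 libraries, each prepared with 12 cycles of PCR starting at 3 µg of RNA, as the labels say. The authors deposited whole-number counts per gene, exon, intron and junction, with no normalization, per the file headers and values. The submitters' processing notes name STAR and TAIR10. The sources used here do not give the counting program, annotation, read length or use of the strand, so the 2387 short introns (20.0%) in overlapping loci are uncertain, and how much of a read must lie in an intron to count is unknown.

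Of 6898 loci, 6890 matched the RefSeq TAIR10.1 annotation by locus tag and all of these overlapped it in position. Strands, gene symbols, sequences and coding frames came from there, and coordinates, counted from 1, from the deposited tables.

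Introns that reached 10 reads in 3 or more libraries were tested over the whole table with edgeR 4.0.16 in R 4.3.3 (quasi-likelihood, robust), with the log of the gene count plus 1, or of the junction count plus 1 (mean at least 20), as offset. Genes were tested with TMM factors, and CPM are edgeR's. Junctions sharing an end were tested with diffSpliceDGE. Other values are sums or medians per library compared by two-sided exact permutation tests. Standard errors came from the coefficient and its F value. The tests were tried on simulated counts. DESeq2 1.42.0 was an alternative. No interval was set on single values, since PCR reads are not independent molecules and the spread between libraries is given. Same-numbered libraries were not treated as pairs.

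The named introns are the 8 largest rises and 4 largest falls relative to junctions among introns with a mean of at least 30 intron and 20 junction reads, the same call in both fits and no overlap, at most 1 per locus. Whatever their result, the 4 introns with the most junction reads and 2 each of 60 and 80 bases were added, as were called introns of the gene lists and the called junctions with a mean of at least 30 reads that lost share. The introns, lists and tests were chosen with earlier results of these data known. AT2G04845, FAC1 and AT5G40500, further introns of named loci and the frequent 5′ splice sites were chosen after their values were seen.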

Additional observations from a re-analysis of the deposited data

How the results depend on the processing

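With coverage along genes as a covariate, calls fell from 740 to 406 relative to gene reads, from 648 to 425 relative to junction reads, from 10 to 3 for junctions and from 2676 to 1584 for host genes (the ratios of 3′ to 5′ coverage were 1.26 to 1.68 in wild type and 0.76 to 1.32 in the mutant and overlap). A junction mean of at least 100 left 415 of 2194 called, with fewer introns tested. The cluster total as offset called 18 junctions. Leaving out 1 library gave 552 to 680, 503 to 602, 5 to 8 and 1852 to 2844 calls in the same order. Unannotated junctions that share 1 end changed by 0.21 (log2) where all such junctions changed by -0.04. The intron of AT3G56210, at 0.24 and not called, was at -0.95 with the coverage covariate, and between -0.56 and 0.73 when 1 library was left out (-0.03 without wild type replicate 1 and -0.56 without mutant replicate 2). AT1G67700 was called at a junction mean of at least 100 (log2 0.46, edgeR adjusted p = 0.0390). For these the cause was not tested.

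The replicate numbers did not pair the libraries (correlations of deviations between -0.04 and 0.03 over introns and between -0.11 and -0.02 over genes). With the replicate block 666, 586, 7 and 2460 were called, the summed changes were 0.49 and 0.46, and of the named introns only LHCB5 lost its call (edgeR adjusted p = 0.0520). DESeq2 called 604 and 567 short introns, the TMM library size as reference 985, and no filter on intron reads 770 and 735. The smaller rise of short than of longer introns was -0.12 to -0.13 with any 1 library left out, and the shift between weak and strong 5′ splice sites 0.54 to 0.56. At 3 against 3 libraries no exact test could pass 0.05, and 8516 of the short introns had too few reads to be tested.
Alternatives chosen after seeing the data were the coverage covariate for junctions, loci without overlap, whole GT to AG introns, the score class of 6 to 8, gene reads with introns of 81 to 120 bases, and the median, no-overlap and top-1% summaries of the shift by last exonic base. The shift between weak and strong 5′ splice sites was itself defined after seeing the data, with all of its alternatives.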
